A study of Mus musculus with 3 samples.

Results

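The nuclear genes of oxidative phosphorylation were examined for ATRX-bound sites in cultured mouse neurons. They were taken by symbol, as protein-coding genes of chromosomes 1 to 19 whose names start with Ndufa, Ndufb, Ndufc, Ndufs, Ndufv, Uqcr, Cox4, Cox5, Cox6, Cox7, Cox8 or Atp5. This gave 89 of 20665 genes, namely 37 of complex I, 8 of complex III, 17 of complex IV, 17 of complex V, and 10 assembly factors and paralogues. A peak was assigned to a gene when it overlapped the annotated gene or the 5 kb on either side, called the window here. The members lay on 18 chromosomes and no windows of members overlapped one another, so each peak was counted for 1 member only. The rule itself used names alone and no measured value, but it was chosen with earlier results of these data known.

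The neurons of both conditions were cultured from C57BL6/J mice taken at E15.5-17.5, received lentivirus after 5 days in culture (DIV5), and were harvested at DIV14 for ChIP with an ATRX antibody. The control virus carried mCherry, a red fluorescent protein, and the other was labelled MICAL1-FL, after the actin-oxidising monooxygenase MICAL1. Neither the promoter driving these inserts nor the share of infected cells is stated in the sources used here, and peak lists cannot check the cell type. Each condition had a lone ChIP library, which leaves every difference without a replicate check, and all intervals are 95% intervals that cover counting error only. The deposited peaks of the MICAL1-FL sample are named with the prefix TBC_M2, and every value given for MICAL1-FL rests on the sample label.

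Oxidative phosphorylation is the last stage of respiration in mitochondria. Complex I (NADH dehydrogenase), complex III (cytochrome bc1) and complex IV (cytochrome c oxidase) pass electrons to oxygen and pump protons across the inner membrane, and complex V (ATP synthase) uses that gradient to make ATP. The subunits come from both the mitochondrial and the nuclear genome, and neurons are known to depend on this pathway for firing and synaptic transmission. Its nuclear genes are mostly short, broadly expressed and known to share binding sites for factors such as NRF1, GABPA, YY1 and the oestrogen-related receptors. ATRX is a chromatin remodeller best known at repeats and telomeres, where it places histone H3.3 with DAXX.

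ATRX peaks at these genes were as shallow as those of the lists in general. The control list held 66 peaks in member windows (Poisson interval 51.0 to 84.0) and the MICAL1-FL list 86 (68.8 to 106). Depth was recovered from the fold and p-value that the authors' peak caller gave each peak. The median member peak was 5.0 ChIP fragments deep in each list, as was the median of all autosomal peaks, and the deepest member peaks reached 9 (control) and 8 (MICAL1-FL) fragments. The median fold over background was 2.29 at members and 2.29 over all autosomal peaks in both lists. No member peak had a q-value below 0.05, and of all autosomal peaks 386 (control, 0.350%) and 308 (MICAL1-FL, 0.295%) did. The lowest member q-value was 0.182 in the control list, at Cox8a, and 0.626 in the MICAL1-FL list. A peak present in 1 list alone therefore does not show that ATRX was absent at that gene in the other.

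Among the members, 8 had peaks of both lists that overlapped by at least 1 bp. They were Cox4i1, Cox6c, Cox7c and Cox8a of complex IV, Atp5g3 and Atp5j of complex V, Ndufa6 of complex I and the assembly factor Ndufaf2. The share, 8.99% of members (exact interval 3.96 to 16.9), stood against 15.6% of all protein-coding genes, whose median length is greater. Within genes of up to 10 kb it was 7 of 63 members (11.1%, 4.59 to 21.6) and 6.63% of all genes. The longer classes went the other way. At 10 to 30 kb it was 0 of 20 members (0 to 16.8%) and 10.3% of all genes. Over 30 kb it was 1 of 6 (16.7%) and 29.2%. As a share of peaks, 12.1% of member control peaks overlapped a MICAL1-FL peak (5.38 to 22.5), against 6.85% of all autosomal control peaks. In the other direction it was 9.30% (4.10 to 17.5) against 7.23%.

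The overlapping peaks lay close to where transcription starts. Start sites and strand were taken from the RefSeq promoter table, which holds 72 of the 89 members, among them 6 of these 8. At all 6 both summits lay between 129 and 420 bp from the nearest start site. At Cox8a, Cox7c, Ndufa6, Atp5g3 and Ndufaf2 they were downstream of it, and at Atp5j upstream of the nearest of its start sites. Over all protein-coding windows, 25.3% of overlapping control peaks had a summit within 1 kb of an annotated start site, against 6.67% of the control peaks that overlapped none. At members these shares were 6 of 8 and 16 of 58 control peaks. Cox4i1 and Cox6c are not in the promoter table. Their summits were 218 and 437 bp (Cox4i1) and 470 and 613 bp (Cox6c) from an end of the gene, control value first.

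Cox8a encodes the widely expressed form of the smallest subunit of cytochrome c oxidase and carried the strongest member peak of the control list. That peak, on chromosome 19 from 7216878 to 7217493, had a fold of 3.81 and 9 fragments. The MICAL1-FL peak, from 7217197 to 7217507, had a fold of 2.29 and 5 fragments. Cox7c, another small subunit of the same enzyme, had a fold of 3.05 with 7 fragments in the control list (chromosome 13, 86046416 to 86046720). In the MICAL1-FL list its fold was 3.44 with 8 fragments (86046082 to 86046674), among the highest of members there. The summits of the Cox7c peaks were 57 bp apart and those of Cox8a 154 bp. Folds are the authors' values for each peak within its own list and are not compared between lists.

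Atp5g3 encodes a copy of the c subunit that forms the rotating ring of ATP synthase. Its control peak, on chromosome 2 from 73910569 to 73911603, was 1035 bp wide with a fold of 3.07 and 8 fragments. The MICAL1-FL peak, from 73910831 to 73911139, lay wholly inside it with a fold of 2.48 and 8 fragments. Atp5j encodes the coupling factor 6 subunit of the ATP synthase stalk, and its upstream region lies within the annotated span of Gabpa, which encodes a transcription factor subunit known to act on respiratory genes. The Atp5j peaks, on chromosome 16 from 84835142 to 84835735 (control, fold 2.29) and from 84835607 to 84835878 (MICAL1-FL, fold 3.06), shared 129 bp and had summits 539 bp apart. Ndufa6, a supernumerary complex I subunit, had folds of 2.67 and 1.93 with 6 fragments in each list and summits 56 bp apart. Ndufaf2, an assembly factor of complex I, had folds of 2.22 and 2.42 with 5 and 7 fragments and summits 59 bp apart. All 8 pairs were between 5 and 9 fragments deep.

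The promoter sequences of these genes are shown because the overlapping peaks lie on or beside them. Each runs 5′ to 3′ on the strand of the gene, from 250 bases before to 50 bases after the start site, as given by RefSeq for GRCm38.p6. Capitals mark matches on either strand to the motifs NRF1 (GCGCATGC), ETS/GABPA (CCGGAAG), YY1 (AAGATGGC), oestrogen-related receptor or ERR (AAGGTCA), Sp1 (GGGCGG) and the TATA box (TATAAA), or to the G-quadruplex pattern of 4 runs of at least 3 G with 1 to 7 bases between them. Where matches of different motifs overlap, as those of Sp1 and the G-quadruplex pattern can, the capitals run together. In order, the windows are chr19:7217567-7217866, chr13:86046746-86047045, chr2:73911277-73911576, chr16:84835576-84835875 and chr16:84834927-84835226 for the upstream and downstream start sites of Atp5j, chr15:82354242-82354541 and chr13:108158576-108158875, all on the minus strand.
Cox8a: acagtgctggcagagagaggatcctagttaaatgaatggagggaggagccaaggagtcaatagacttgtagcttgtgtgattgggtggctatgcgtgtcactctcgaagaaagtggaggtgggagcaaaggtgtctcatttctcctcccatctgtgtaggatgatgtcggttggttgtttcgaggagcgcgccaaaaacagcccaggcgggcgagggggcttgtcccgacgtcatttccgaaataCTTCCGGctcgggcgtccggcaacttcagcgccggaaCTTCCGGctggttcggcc
Cox7c: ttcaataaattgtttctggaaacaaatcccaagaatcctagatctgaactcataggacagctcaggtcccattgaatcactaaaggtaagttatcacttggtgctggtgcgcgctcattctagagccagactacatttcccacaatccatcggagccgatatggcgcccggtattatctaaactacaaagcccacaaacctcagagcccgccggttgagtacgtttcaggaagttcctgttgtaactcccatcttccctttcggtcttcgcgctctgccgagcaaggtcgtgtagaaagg
Atp5g3: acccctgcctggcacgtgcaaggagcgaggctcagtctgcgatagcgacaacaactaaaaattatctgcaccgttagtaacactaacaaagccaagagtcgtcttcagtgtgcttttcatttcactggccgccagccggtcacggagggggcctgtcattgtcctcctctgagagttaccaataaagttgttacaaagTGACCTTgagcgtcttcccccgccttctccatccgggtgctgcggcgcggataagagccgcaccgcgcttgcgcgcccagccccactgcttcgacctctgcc
Atp5j upstream: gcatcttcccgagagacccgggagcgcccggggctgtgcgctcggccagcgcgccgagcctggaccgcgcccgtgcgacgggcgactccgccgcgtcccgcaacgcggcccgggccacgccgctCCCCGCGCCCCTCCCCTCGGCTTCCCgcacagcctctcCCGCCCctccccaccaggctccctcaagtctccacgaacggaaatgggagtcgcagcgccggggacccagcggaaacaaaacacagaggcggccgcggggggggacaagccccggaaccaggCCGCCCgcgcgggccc
Atp5j downstream: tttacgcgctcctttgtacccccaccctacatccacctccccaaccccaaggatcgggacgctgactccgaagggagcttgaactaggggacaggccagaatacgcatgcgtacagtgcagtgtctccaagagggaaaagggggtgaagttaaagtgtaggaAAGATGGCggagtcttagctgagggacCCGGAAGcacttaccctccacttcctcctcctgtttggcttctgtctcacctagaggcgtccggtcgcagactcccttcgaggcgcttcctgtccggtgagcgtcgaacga
Ndufa6: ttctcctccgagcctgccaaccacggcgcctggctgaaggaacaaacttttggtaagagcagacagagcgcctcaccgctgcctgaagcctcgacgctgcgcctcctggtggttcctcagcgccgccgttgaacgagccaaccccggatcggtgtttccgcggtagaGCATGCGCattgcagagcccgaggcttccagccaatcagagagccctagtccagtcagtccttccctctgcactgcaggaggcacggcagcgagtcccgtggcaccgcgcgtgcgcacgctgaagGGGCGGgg
Ndufaf2: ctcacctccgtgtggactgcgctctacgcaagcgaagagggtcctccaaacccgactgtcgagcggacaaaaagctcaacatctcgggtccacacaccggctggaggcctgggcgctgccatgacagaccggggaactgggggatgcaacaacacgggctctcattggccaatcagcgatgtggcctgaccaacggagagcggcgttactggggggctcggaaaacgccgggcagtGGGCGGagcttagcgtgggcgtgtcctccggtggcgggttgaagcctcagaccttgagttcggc

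The control peak at Atp5g3 covered all 300 bases of its window, which holds 1 ERR match. The upstream Atp5j window has a GC content of 77.0% and 43 CpG, the most of any member promoter for both. The control peak covered its bases 141 to 300 and the MICAL1-FL peak its bases 1 to 269. The downstream Atp5j window holds 1 YY1 and 1 ETS/GABPA match, and the control peak covered its bases 1 to 85. At Cox8a, whose window holds 2 ETS/GABPA matches, and at Cox7c, which holds none of the motifs, the peaks began downstream of the printed bases. The same was so at Ndufa6, with 1 NRF1 and 1 Sp1 match, and at Ndufaf2 all but 5 bases of the control peak lay downstream.

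**Figure D1:**
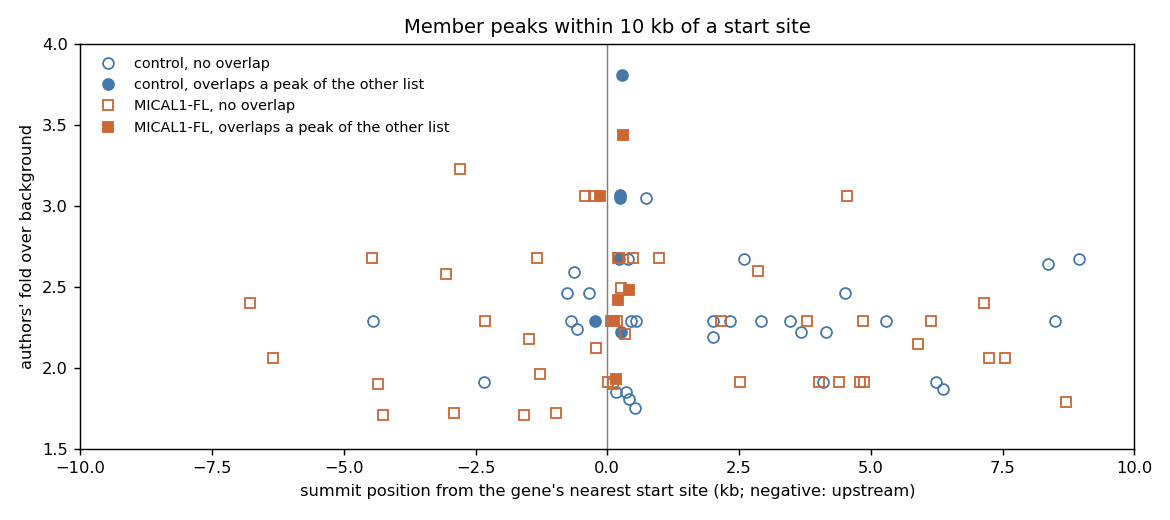
Summit position of each member peak from the nearest annotated start site of its gene (x axis, kb, negative values upstream) against the fold given by the authors' peak caller (y axis). Circles are control and squares MICAL1-FL peaks, and filled symbols overlap a peak of the other list. The filled symbols stand within 0.42 kb of a start site, and peaks farther than 10 kb away or at members with no start site in the table are not drawn.

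Member peaks were denser at start sites than away from them in both lists. Summits within 1 kb of a start site at the 77 start sites of members came to 130 (control) and 143 (MICAL1-FL) per Mb. Over the 20085 start sites of all protein-coding genes these values were 131 and 123 per Mb. At distances of 5 to 10 kb, members had 20.8 and 28.6 summits per Mb (16 and 22 summits), and all genes 39.2 and 34.2 per Mb. A summit within 1 kb of a start site was present at 18 of the 72 members with a known start (25.0%) in the control list, where 25.1% of all genes had one. It was present at 20 of 72 (27.8%) in the MICAL1-FL list, where 24.2% of all genes had one. Both shares were near those of all genes. A summit of either list was present at 30 of the 72 (41.7%, all genes 39.4%). A peak covered part of the 300-base promoter itself at 4 members in the control list (5.56%, all genes 11.7%) and at 8 in the MICAL1-FL list (11.1%, all genes 12.3%), and 1 of either list at 11 (15.3%, all genes 21.0%).

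The control peaks over a promoter were at Atp5g3, Atp5j, Ndufb3 and Ndufaf2. Those of the MICAL1-FL list were at Atp5j, Ndufb1, Ndufa5, Ndufaf1, Cox7a1, Ndufv1, Cox6a1 and Ndufs5, so that Atp5j alone had 1 in each list. The highest fold among these MICAL1-FL peaks was 3.06, at Atp5j and at Ndufb1, a small membrane subunit of complex I. The Ndufb1 peak, on chromosome 12 from 101975333 to 101976168, covered all 300 bases of the promoter, chr12:101975689-101975988 on the minus strand, and its summit lay in the neighbouring gene Cpsf2. The control list had a peak 0.76 kb upstream of the same start site, with a fold of 2.46, that did not overlap it. The promoter of Cox6a1 is shown because a peak covered part of it and it holds matches to NRF1, Sp1, ETS/GABPA and the G-quadruplex pattern. Its NRF1 match is a single stretch that reads the same on both strands. Its MICAL1-FL peak (fold 2.68) covered bases 263 to 300 of chr5:115348909-115349208, also on the minus strand.
Ndufb1: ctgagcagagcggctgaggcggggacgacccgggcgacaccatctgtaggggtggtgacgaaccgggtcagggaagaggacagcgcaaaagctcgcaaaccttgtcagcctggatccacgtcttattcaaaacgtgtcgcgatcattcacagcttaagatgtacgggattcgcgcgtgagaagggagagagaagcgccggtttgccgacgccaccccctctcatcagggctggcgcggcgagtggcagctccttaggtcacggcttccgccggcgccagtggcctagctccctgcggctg
Cox6a1: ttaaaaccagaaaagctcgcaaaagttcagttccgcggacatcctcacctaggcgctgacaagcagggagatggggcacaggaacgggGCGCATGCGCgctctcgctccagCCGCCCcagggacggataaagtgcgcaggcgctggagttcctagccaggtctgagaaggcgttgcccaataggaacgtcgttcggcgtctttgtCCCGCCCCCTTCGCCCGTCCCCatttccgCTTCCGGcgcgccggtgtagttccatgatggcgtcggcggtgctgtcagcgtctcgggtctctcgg

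Complex I was the largest group, with 28 control and 33 MICAL1-FL peaks in the windows of 37 genes. At least 1 control peak was present at 17 of them, and at least 1 MICAL1-FL peak at 23. For comparison, 66.4% of all protein-coding genes carried at least 1 control peak and 63.7% at least 1 of MICAL1-FL. Among genes of up to 10 kb these shares were 44.0% and 40.5%, and the median length in complex I was 7.80 kb. Ndufs4, an accessory subunit whose loss is known to cause Leigh syndrome, had the most peaks of the group, 6 of the control and 3 of MICAL1-FL, over a gene of 100 kb. Ndufs4 peaks were spread through the gene, and none of one list overlapped one of the other. Ndufa6 had 2 in each list and Ndufa10 had 2 and 1. Ndufb3 had 2 control peaks and no MICAL1-FL peak, one of them 0.35 kb upstream of the start site with a fold of 2.46, in the span of Fam126b. Ndufb2 had the reverse, 0 and 2, with its stronger peak 0.43 kb upstream of the start site at a fold of 3.06.

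Some subunits that hold the flavin and iron-sulphur clusters of complex I, or stand beside them, had MICAL1-FL peaks alone. Ndufs1, the largest subunit, had 0 control and 3 MICAL1-FL peaks, with folds of at most 2.06. Ndufs8 and Ndufv2 had 0 and 2 each, and Ndufv1 had 0 and 1. Ndufs3 and Ndufs7 had none in either list. These genes were grouped by role with the values known, and no share over all genes is set beside them.

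Ndufb4b and Ndufb4c, annotated protein-coding copies of Ndufb4 with spans of 471 and 485 bp, had all their peak summits outside the copies. The control peak at Ndufb4c overlapped the copy in part, with its summit 38 bp beyond its end. The MICAL1-FL peak beside Ndufb4c, on chromosome 15 from 73805604 to 73805890, had a fold of 3.44 and shared the highest MICAL1-FL fold of all members with Cox7c. Its summit was in the span of the neighbouring gene Mroh5. Complex I members with no peak in either list were Ndufa3, Ndufa12, Ndufab1, Ndufb7, Ndufb8, Ndufb9, Ndufs3 and Ndufs7. Ndufab1 encodes the mitochondrial acyl carrier protein.

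Complex III had 6 control and 7 MICAL1-FL peaks in 8 genes. Uqcr10 (2 control peaks), Uqcr11 (1) and Uqcrb (1) had control peaks alone, while Uqcrc2 (2) and Uqcrc1 (1), which encode the core proteins, had MICAL1-FL peaks alone. Uqcrh and Uqcrq had 1 control and 2 MICAL1-FL peaks each. Uqcrfs1, the Rieske iron-sulphur protein, had none. Genes with peaks of a single list are given here without a share over all genes. No pair of complex III peaks overlapped, where 15.6% of all genes and 6.63% of those of up to 10 kb had such a pair. The control and MICAL1-FL peaks upstream of Uqcrh, at 0.63 and 1.33 kb from the start site, were both in the span of Lrrc41.

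Complex IV held 4 of the 8 members with overlapping peaks (23.5% of its genes). Such peaks were present at 15.6% of all genes and at 6.63% of those of up to 10 kb. Complex IV had 14 control and 18 MICAL1-FL peaks in 17 genes, with a peak at 9 (52.9%) and 11 (64.7%) of them. For all genes these shares were 66.4% and 63.7%, and for those of up to 10 kb 44.0% and 40.5%. Ndufa4 was placed here because its product is now known to be a subunit of this enzyme, and it had 1 control and 0 MICAL1-FL peaks. Cox4i1, the common form of subunit 4, had 1 control peak (fold 2.38, 8 fragments) and 2 MICAL1-FL peaks, of which the overlapping one had a fold of 2.97 and 7 fragments. Cox6c had 1 and 2, with overlapping peaks at folds of 2.67 and 2.15. Cox5a, a nuclear subunit, had 2 control peaks and none in the MICAL1-FL list. Cox5b, Cox7a2, Cox8b and Cox8c had none in either list.

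Forms of complex IV subunits that are known for other tissues had control peaks at 2 of 7 genes (28.6%) and MICAL1-FL peaks at 5. For all genes of any length these shares were 66.4% and 63.7%, and for those of up to 10 kb 44.0% and 40.5%. All 7 genes except Cox7b2 and Cox4i2 are of up to 10 kb, so the any-length shares also reflect gene length. Cox7b2, a testis form, had 5 peaks in each list over a gene of 105 kb, and none of them overlapped. Cox6b2, the testis form of subunit 6b, had 1 control peak with a fold of 3.05 on chromosome 7 from 4752159 to 4752470, and 2 MICAL1-FL peaks upstream in the neighbouring Fam71e2. Cox4i2, Cox6a2 and Cox7a1, known from lung, heart and muscle, had 0 control and 1 MICAL1-FL peak each, that of Cox6a2 with its summit 3923 bp outside the gene. The 7 genes, which include Cox8b and Cox8c with no peak, came to 6 control and 10 MICAL1-FL peaks (ratio 1.67, 0.549 to 5.58). The other 10 genes had 8 in each list (interval of the ratio 0.327 to 3.06). All 4 complex IV members with overlapping peaks were in the second group, and the intervals of the ratios overlap.

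Complex V had 11 control and 13 MICAL1-FL peaks in 17 genes, and 7 genes with none. No peak of either list was present at 20.3% of all genes and at 39.4% of those of up to 10 kb. The 3 genes of the c-ring each had a peak in both lists: Atp5g1 had 1 and 2, Atp5g2 had 2 and 1, and Atp5g3 had 1 and 2. Peaks of both lists were present at 50.4% of all genes and at 23.9% of those of up to 10 kb. Of all genes 66.4% had a control peak, and of those of up to 10 kb 44.0%. The genes of the catalytic head and central stalk, with a median length of 7.13 kb, had no control peak. Of these 5, Atp5a1 and Atp5b, which encode the alpha and beta subunits, had none in either list, Atp5c1 and Atp5e had 1 MICAL1-FL peak each and Atp5d had 3. The Atp5d peaks had folds of at most 2.40, and all 3 summits were in the spans of its neighbours Cbarp and Midn. Atp5mpl, a small proteolipid of the enzyme, had 3 control peaks and 1 MICAL1-FL peak, the control peak on chromosome 12 from 111971495 to 111971813 having a fold of 2.75 with 8 fragments and its summit in Tdrd9. Atp5k, a membrane subunit, had 1 and 0. Atp5h, Atp5j2, Atp5l, Atp5md and Atp5pb had no peak. The 9 genes outside the c-ring, head and central stalk had 7 control and 3 MICAL1-FL peaks (ratio 0.429, 0.0715 to 1.88), the opposite direction to the head and stalk with its 0 and 5. These role groups too were set with the values known.

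The 8 Ndufaf genes, whose products help to build complex I, had 7 control and 14 MICAL1-FL peaks (ratio 2.00, 0.755 to 5.86). None of the 8 had more control than MICAL1-FL peaks, 4 had more MICAL1-FL peaks and 4 had equal numbers. More control peaks were counted at 36.2% of all genes and at 27.3% of those of up to 10 kb. More MICAL1-FL peaks were counted at 29.8% and 22.4%. Ndufaf5 had 1 and 4, with MICAL1-FL folds up to 3.06, and Ndufaf3 had 0 and 2. The taller Ndufaf3 peak, on chromosome 9 from 108569991 to 108570317, had a fold of 3.23 and lay in the neighbouring Dalrd3. Ndufaf2, whose gene is 106 kb long, had 3 in each list, and Ndufaf4 had 2 in each. Ndufaf6 had 1 in each, and Ndufaf1 and Ndufaf8 had 1 MICAL1-FL peak alone. Ndufaf7 had none, nor had Cox7a2l, which encodes a factor of respiratory supercomplexes. Ndufa4l2, a paralogue of Ndufa4 known to be induced by low oxygen, had 0 and 1.

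**Figure D2:**
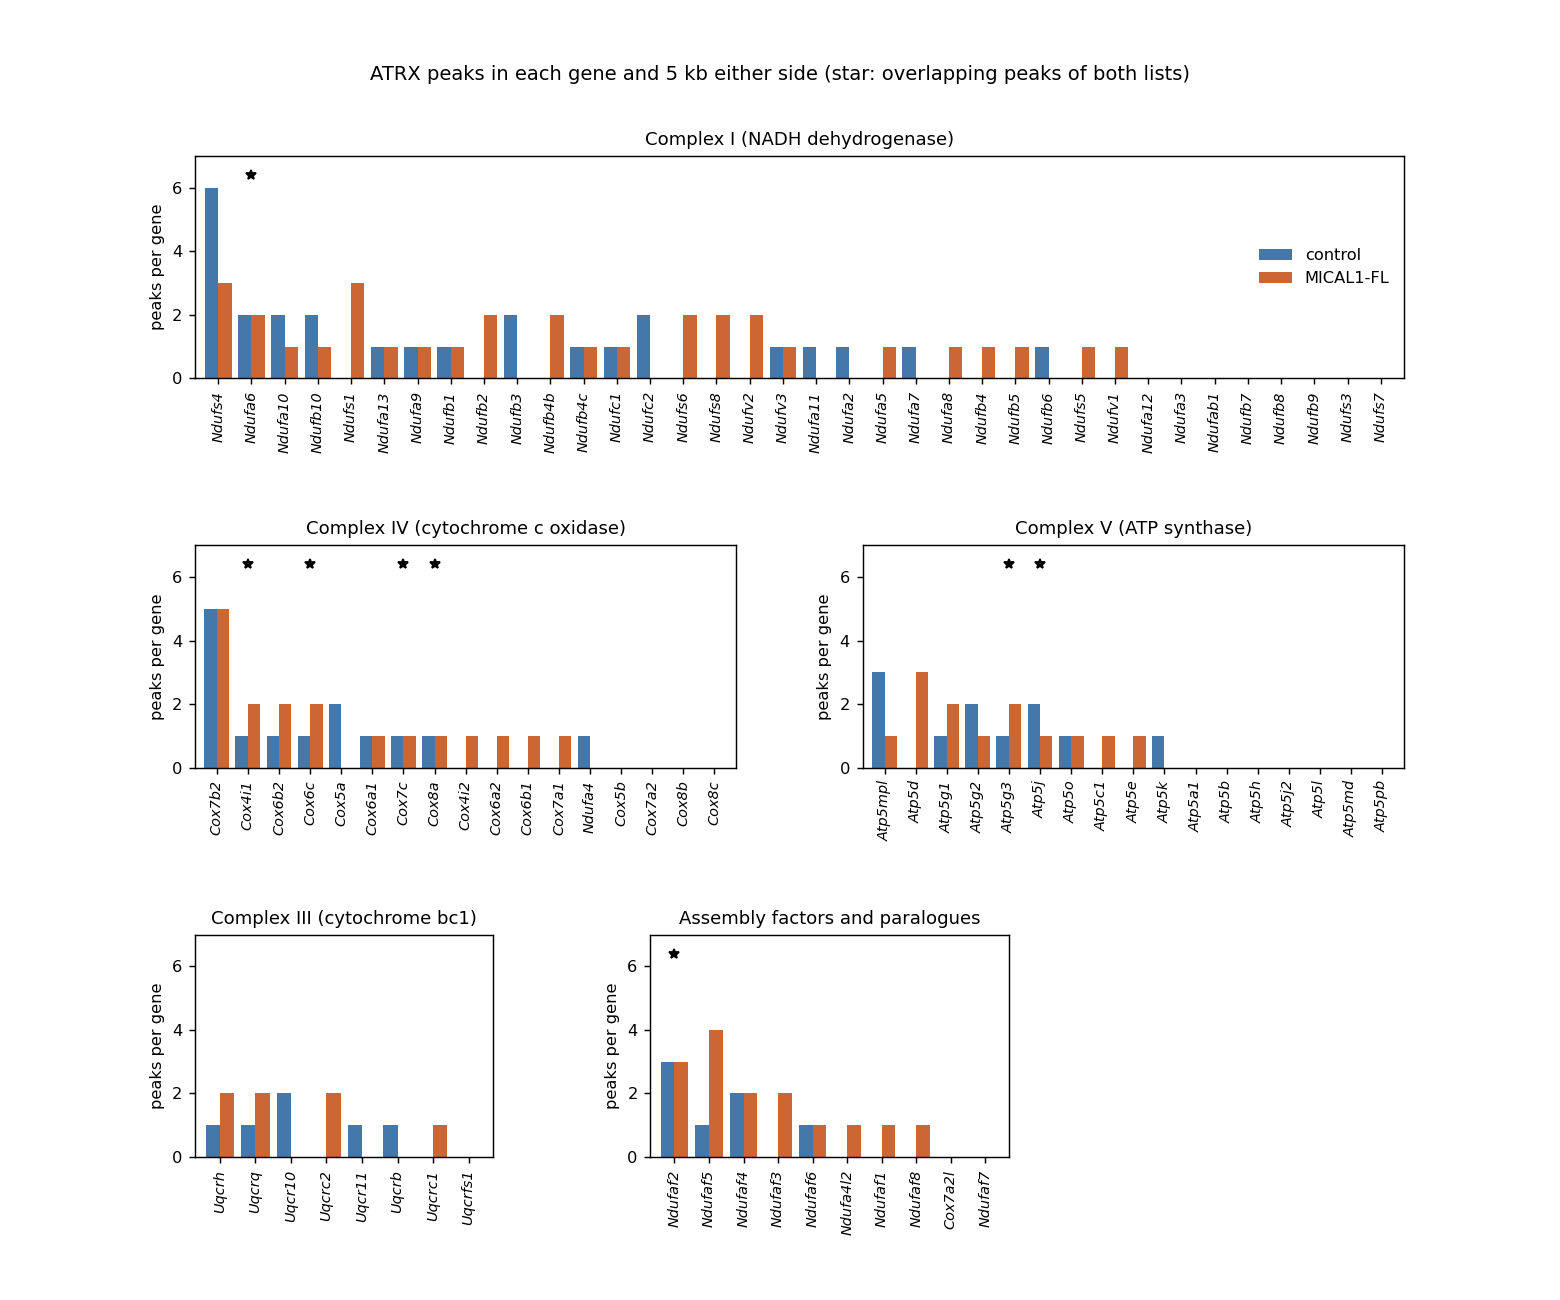
Number of ATRX peaks in the window of each member drawn (y axis), with genes on the x axis grouped by respiratory complex and ordered by their total. Blue bars are the control and orange bars the MICAL1-FL list, stars mark the 8 members whose peaks of both lists overlap, and the tallest bar is Ndufs4 with 6 control peaks.

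Across all 89 members, 42 had a control peak (47.2%, 36.5 to 58.1), where 66.4% of all protein-coding genes had one. In the MICAL1-FL list 55 had a peak (61.8%, 50.9 to 71.9), where 63.7% of all genes had one. Peaks of both lists were present at 30 members (33.7%, against 50.4% of all genes), of the control list alone at 12, of the MICAL1-FL list alone at 25, and of neither at 22 (24.7%, 16.2 to 35.0, against 20.3% of all genes). The counts for either list alone have no share over all genes set beside them. Members are short, with a median length of 7.18 kb against 17.5 kb for all genes, so the shares were also set out by length. Of the 63 members of up to 10 kb, 31 had a control peak (49.2%, 36.4 to 62.1), against 44.0% of all genes of that length. In the MICAL1-FL list it was 38 (60.3%, 47.2 to 72.4), against 40.5%. In that class 21 members had peaks of both lists (33.3%, 22 to 46.3, against 23.9%) and 15 of neither (23.8%, 14 to 36.2, against 39.4%). Both comparisons in this class went the opposite way to those over genes of any length. Of the 20 members of 10 to 30 kb, 6 had a control peak (interval 11.9 to 54.3%), against 65.8% of all genes of that length. In the MICAL1-FL list it was 11 (55.0%, 31.5 to 76.9), against 61.6%. Peaks of both lists were at 4 of these 20 (interval 5.73 to 43.7%, against 44.5%) and of neither at 7 (15.4 to 59.2%, against 17.1%). Here both comparisons went the same way as over genes of any length. Of the 6 members over 30 kb, 5 had a control and 6 a MICAL1-FL peak, against 89.7% and 89.1% of all genes of that length. The control share of members was thus below that of all genes in the class of 10 to 30 kb. Over 30 kb it was also below, at 83.3% of only 6 members, and in the class of up to 10 kb it was not.

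Per Mb of window, members had 33.3 control peaks (25.8 to 42.4), below the 47.8 of all protein-coding genes. They had 43.5 MICAL1-FL peaks (34.8 to 53.7), near the 44.4 of all genes. These densities differed by length. Members of up to 10 kb had 43.0 control peaks (30.9 to 58.4), against 47.2 of all genes of that length. Their MICAL1-FL peaks came to 56.7 (42.6 to 73.9), against 41.9. Members of 10 to 30 kb had 14.9 control peaks (6.42 to 29.3), against 43.2. Their MICAL1-FL peaks came to 24.2 (12.9 to 41.3), against 38.7. Over 30 kb the values were 34.9 against 48.7 (control) and 39.0 against 45.7 (MICAL1-FL). The ratio of MICAL1-FL to control peaks at members was 1.3 (exact binomial interval 0.935 to 1.82), against 0.929 over all genes. The interval includes 1, and its lower bound lies just above the ratio of all genes. Leaving out 1 member at a time moved the lower bound between 0.899 and 0.981, and it fell below 0.929 in 33 of the 89 cases. Point values were above that of all genes in each complex, at 1.18 in complex I (0.691 to 2.02), 1.17 in complex III (0.336 to 4.2), 1.29 in complex IV (0.604 to 2.79), 1.18 in complex V (0.489 to 2.91) and 2.14 in assembly factors and paralogues (0.822 to 6.21). Each of these intervals includes 0.929. More MICAL1-FL than control peaks were counted at 33 members (37.1%, 27.1 to 48.0), where 29.8% of all genes had more. Among genes of up to 10 kb it was 38.1% (26.1 to 51.2) against 22.4%. More control than MICAL1-FL peaks were counted at 19 (21.3%, 13.4 to 31.3), where 36.2% of all genes did. Among genes of up to 10 kb it was 22.2% (12.7 to 34.5) against 27.3%.

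The ratio at members was nearer to 1 with a stricter threshold and with both shorter and longer windows. With peaks of -log10 p of at least 2, members had 46 (control) and 52 (MICAL1-FL) peaks, giving 1.13 (0.746 to 1.72) against 0.925 for all genes. With windows of 1 kb on either side the ratio was 1.09 (0.742 to 1.61) against 0.931, and with 10 kb it was 1.18 (0.889 to 1.56) against 0.925. All 3 intervals include the ratio of all genes. The local background that goes with each peak, as recovered from fold and p, varied too. It was at its lowest level, 1.62 expected fragments, for 47.7% of member peaks in the MICAL1-FL list, where 68.4% of all autosomal peaks had that level. In the control list these shares were 54.5% and 62.8%. The part that local background has in the ratio was not tested. With 1 library per condition, the virus and any difference between the libraries cannot be told apart.

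**Figure D3:**
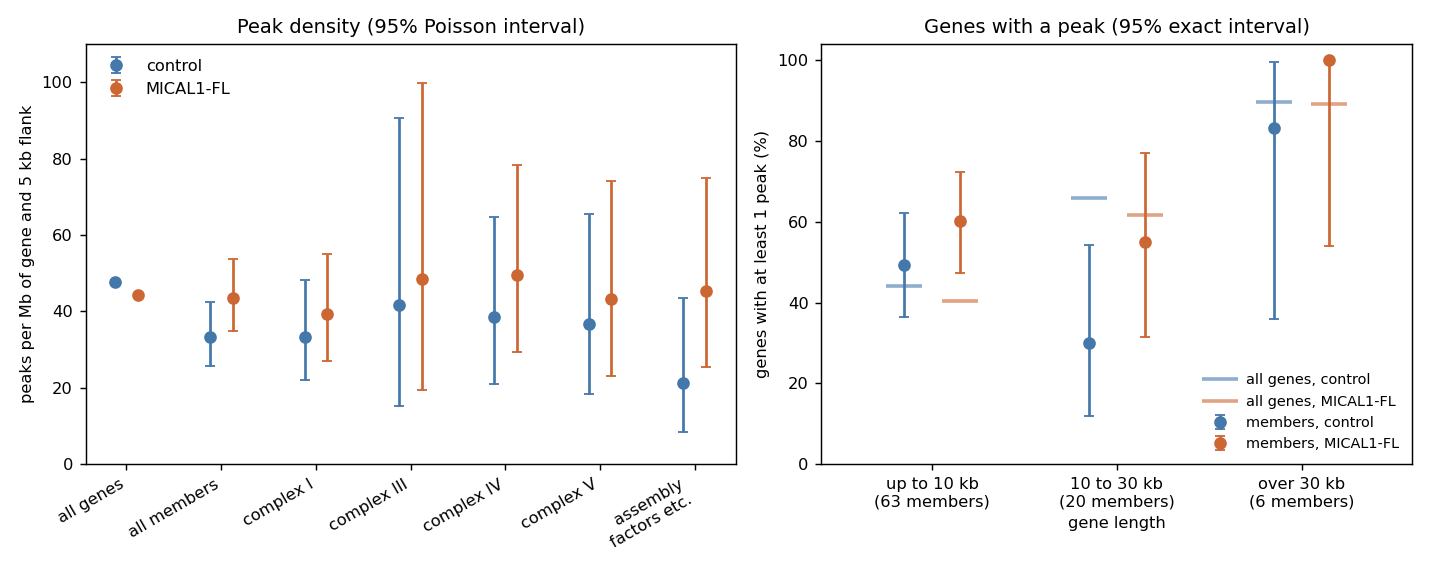
Left, ATRX peaks per Mb of window (y axis) for all protein-coding genes, all members and each complex, with 95% Poisson intervals. Members had 33.3 control (blue) and 43.5 MICAL1-FL (orange) peaks per Mb. Right, share of genes with at least 1 peak (y axis, %) by gene length, as points with 95% exact intervals for members and horizontal marks for all genes, where 38 of 63 members of up to 10 kb had a MICAL1-FL peak.

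Summits within 1 kb of either end of the gene were found at 25 members in the control list (28.1%, against 27.7% of all genes) and at 29 in the MICAL1-FL list (32.6%, against 26.5%). This differed by length. Among genes of up to 10 kb it was 21 members (33.3%, 22 to 46.3, against 21.1%) in the control and 22 (34.9%, 23.3 to 48.0, against 19.7%) in the other list. Among genes of 10 to 30 kb it was 2 of 20 (1.23 to 31.7%, against 25.6%) and 4 of 20 (5.73 to 43.7%, against 25.0%). Most member peaks lay within the gene itself. This was so for 46 of 66 control summits (69.7%) and 50 of 86 MICAL1-FL summits (58.1%). No share over the peaks of all genes is set beside these positions. The upstream flank held 7 control and 16 MICAL1-FL summits and the downstream flank 9 and 12, leaving 4 and 8 flank summits at members with no start site in the table. Summits inside the span of another protein-coding gene, also given without a value for all genes, numbered 9 of the control (13.6%) and 21 of MICAL1-FL (24.4%). Such peaks, among them those at Atp5d, Cox6b2, Ndufaf3 and Ndufb4b, cannot be given to the member rather than to its neighbour. Which peaks fall in exons, introns or UTRs was not told here, as the gene table gives spans only.

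Member promoters held NRF1, YY1 and ETS/GABPA matches more often than all promoters. Among the 77 promoter windows of the 72 members, an NRF1 match was present in 14.3% (exact interval 7.35 to 24.1), against 3.55% of all 20085 windows. A YY1 match was present in 14.3% (7.35 to 24.1) against 3.06%, and an ETS/GABPA match in 22.1% (13.4 to 33.0) against 11.9%. The ERR motif was present in 9.09% (3.73 to 17.8) against 4.03%, an interval that includes the value of all windows. Sp1 (42.9% against 47.0%), TATA (11.7% against 12.7%) and the G-quadruplex pattern (16.9% against 22.5%) had intervals that include the value of all windows too. NRF1 matches were in the promoters of Atp5g2, Atp5k, Atp5l, Cox6a1, Ndufa6, Ndufa8, Ndufa11, Ndufaf4, Ndufaf5, Uqcr11 and Uqcrc1. YY1 matches were in those of Atp5j, Atp5j2, Atp5pb, Ndufa3, Ndufa9, Ndufaf8, Ndufb8, Ndufc1, Ndufs4, Ndufs6 and Ndufs7.

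Motifs were also counted by whether a summit lay near the start site, with small numbers and no test. Of the 32 member windows with a summit of either list within 1 kb, 4 held NRF1, 8 ETS/GABPA, 3 YY1 and 6 the G-quadruplex pattern. Of the 45 without, 7, 9, 8 and 7 did. TATA matches were in 0 of the 32 and 9 of the 45, and ERR matches in 5 and 2. Median CpG numbers were 19.5 with a summit within 1 kb and 20 without, where all windows had 14. A match is a run of letters and does not show that a factor is bound there.

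**Figure D4:**
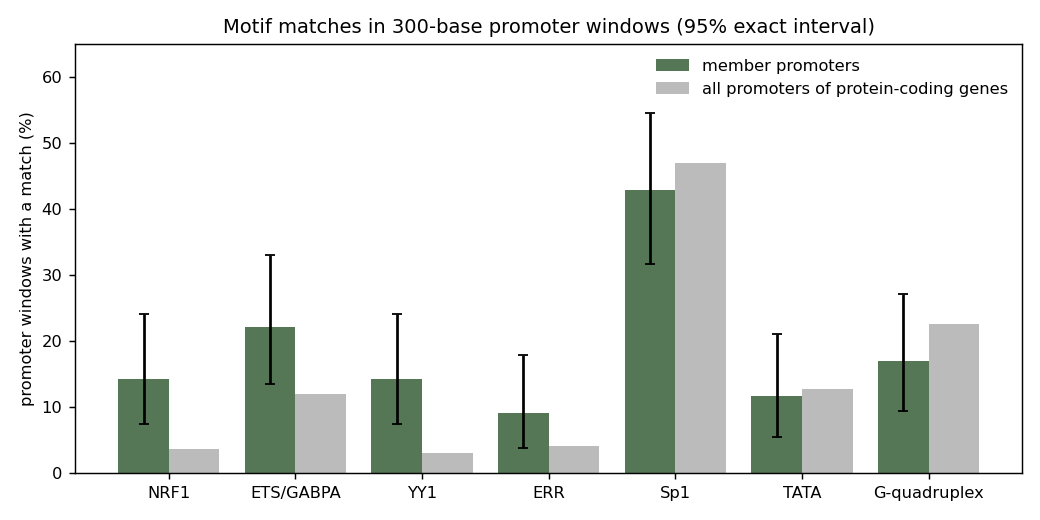
Share of 300-base promoter windows with a match on either strand (y axis, %) for each motif (x axis), in the 77 windows of members (green, 95% exact intervals) and in all 20085 windows of protein-coding genes (grey). NRF1 was present in 14.3% of member windows and 3.55% of all windows, and Sp1 in 42.9% and 47.0%.

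Other mitochondrial genes, in lists by function, gave lower ratios than the members in 4 of 5 lists. The 78 genes of the mitochondrial ribosome, about as long as the members (median 7.69 kb), had 70 (control) and 65 (MICAL1-FL) peaks, giving 0.929 (0.652 to 1.32), with 39.3 and 36.5 peaks per Mb. A peak was present at 39 of them in each list. The 20 genes of cytochrome c and of complexes III and IV outside the symbol rule had 27 and 22 peaks (0.815, 0.442 to 1.49). The 13 genes of the tricarboxylic acid cycle had 41 and 31 (0.756, 0.458 to 1.24), and the 14 regulators of mitochondrial gene expression 66 and 48 (0.727, 0.491 to 1.07). Complex II, which links that cycle to the chain, had 3 and 4 peaks at its 4 genes, with overlapping peaks at Sdhb. The interval of the members overlaps that of each of these lists, and the differences were not tested. Genes picked after their values were seen include Ppargc1a, the coactivator known to drive mitochondrial gene programmes, with 34 and 28 over 662 kb. Gabpa had 2 and 1, with 1 pair overlapping, that of Atp5j.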

How the data were processed

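The files hold ATRX peaks for 2 conditions, with 1 list per ChIP library. An input sample of control neurons is named in the labels and was not analysed here. Per the labels' protocols, input DNA served as background, and, per the submitters' processing notes, which give no role or order, the tools were MACS 1.4.2, Bowtie 1.3.0, ChIPseeker 1.26.2 and SAMtools 1.9. Neither the threshold for calling a peak nor the build is given in the sources used here. The deposited lists give per peak a fold (a ratio over background), a -log10 p-value and a -log10 q-value, a score that is the whole part of 10 times the -log10 p, and a summit offset. The lists held 112153 control and 105674 MICAL1-FL peaks, of which 110190 and 104337 lay on chromosomes 1 to 19. The shallow depth limits what a missing peak can show.

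Gene spans and promoters were those of RefSeq for GRCm38.p6, matched by gene identifier. The fit of that build was checked from the data: summits within 250 bp of start sites were 4.39 (control) and 4.96 (MICAL1-FL) times as dense as at 5 to 10 kb. Fragment depth was recovered by taking fold as the ratio of fragments + 1 to background + 1 and p as a Poisson upper tail, an inference that gave whole fragments for 99.97% and 99.98% of autosomal peaks (-log10 p within 0.0001). Counts have exact Poisson intervals, shares exact Clopper-Pearson intervals and ratios exact conditional binomial intervals, at 95%. No test between conditions was possible with 1 library each. Counting steps were tested on simulated data. The tools were Python 3.11.15, pandas 2.3.3 and SciPy 1.17.1.

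The members and lists were chosen with earlier results of these data known. Named genes were, per complex, those with overlapping peaks, up to 3 with most peaks, up to 2 with the largest excess in each list, those with no peak, and the holders of the 10 member peaks of highest -log10 p in each list. Others are given to complete a complex or role group, and were added after their values were seen. Values of some single genes are not reported here, and 1 member is not drawn in the plot of peaks by gene. Idh3g was listed for the tricarboxylic acid cycle but lies outside chromosomes 1 to 19.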

Additional observations from a re-analysis of the deposited data

How the results depend on the processing

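Of 39 recomputed values, 35 stayed within 1.5 times the reported count or, for the ratio, within its interval. With peaks of -log10 p of at least 2, the MICAL1-FL peaks at members were 52 in place of 86, and 36 members in place of 55 had one. With peaks up to 1 kb apart counted as shared, 14 members in place of 8 had such peaks (15.7%, against 26.3% of all genes). With summits within 500 bp of a gene end in place of 1 kb, 15 members in place of 25 had a control summit there. The ratio of MICAL1-FL to control peaks was 1.09 with windows of 1 kb, 1.18 with windows of 10 kb, 1.38 without Ndufs4 and 1.37 without members longer than 30 kb (0.932 to 2.02, all such genes 0.891), an alternative chosen after seeing the data, as was the use of annotated start sites alone. With subunits only it was 1.20 (0.840 to 1.73). The cause of these shifts was not tested. No paired analysis was possible because there was 1 library per condition and no test. Depth limits every gene-level statement, as member peaks were 4 to 9 fragments deep.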

Other observations

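Genes of the pathway outside the symbol and chromosome rule were looked at for completeness. The mitochondrial chromosome, which encodes the remaining subunits of complexes I, III, IV and V, had 0 peaks in each list. Of the 3 X-linked genes with the same prefixes, Ndufa1 had 1 control and 1 MICAL1-FL peak, and Ndufb11 and Cox7b had none. The 19 annotated pseudogenes with the same prefixes had 7 control and 11 MICAL1-FL peaks in windows of the same kind, at 6 and 8 of them. Among these, Atp5k-ps2 had 0 and 3 and Uqcrh-ps2 had 2 and 1. Shares over all pseudogenes were not counted. How reads that match both a gene and its processed copies were placed was not told here.

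With peaks up to 1 kb apart taken as shared, the members added to the 8 were Atp5g1, Atp5g2, Ndufaf4, Ndufaf6, Ndufb1 and Uqcrh. The 14 are 15.7% of members, where 26.3% of all genes met that rule.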
